A study of Mus musculus with 6 samples.

Results

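Transcripts of cholesterol and fatty acid synthesis were examined in microglia, the resident macrophages of the central nervous system, sorted from the spinal cord of SOD1 G93A mice and their wild type littermates. The genes were a list of 36, of which 17 encode enzymes of cholesterol synthesis, 6 encode proteins that control the pathway or carry sterols, and 13 encode enzymes that make, elongate, desaturate or activate fatty acids. A probe set of the array named 34 of the 36, out of 18193 named genes in all: 16 sterol enzymes, 6 control and transport genes and 12 fatty acid genes. Acat2 and Acsl1 were not analysed here.

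Microglia of SOD1 G93A mice, a model of amyotrophic lateral sclerosis (ALS), a paralytic disease of motoneurones, were compared with WT microglia on whole-genome mouse Affymetrix arrays, 3 per genotype. The SOD1 G93A animals were males of the high copy number line B6SJL-Tg(SOD1-G93A)1Gur/J at 90 days of age (P90), an age at which the study considers them symptomatic. This transgene is a human SOD1 gene under its own promoter, so it is not restricted to microglia. The WT animals were males of the same age and the same B6SJL background, litter-matched, without the transgene. Cells positive for the surface protein CD11b were sorted by FACS from the lumbar cord, and each array held RNA from at least 6 pooled mice. The spread between arrays is therefore a spread between pools, not between single mice. The p-values of limma, the test used here, set each difference against that spread, moderated over all probe sets.

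Cells build cholesterol from acetyl-CoA through mevalonate, isoprenoids and squalene, and the last steps convert lanosterol into cholesterol. The transcription factors SREBP-2 (Srebf2) and SREBP-1 (Srebf1), escorted by SCAP (Scap) and held back by the INSIG proteins (Insig1, Insig2), switch on the sterol enzymes and many fatty acid genes when membrane sterol is low. Fatty acids are built from the same acetyl-CoA by acetyl-CoA carboxylase and fatty acid synthase, and are then elongated, desaturated and coupled to CoA. In the spinal cord this machinery is known best from oligodendrocytes, which supply the lipid of myelin, while microglia that take up myelin debris handle large amounts of sterol.

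Facts about the arrays touch the values below. The first principal component (46.4% of the variance) separated the genotypes, and the second (28% of the variance) set the array numbered 1 of each genotype apart from the others. The difference between the 3' and 5' Gapdh control probe sets, a sign of RNA integrity and amplification, was 4.63, 4.28 and 3.47 log2 units in SOD1 G93A arrays 1, 2 and 3 and 5.01, 4.79 and 4.87 in WT arrays 1, 2 and 3. All SOD1 G93A arrays were thus below all WT arrays on that measure, and its part in the results was not tested beyond the fit with this covariate given further on. The same difference between actin control probe sets overlapped between genotypes. It was 3.36, 2.75 and 1.92 in SOD1 G93A arrays 1, 2 and 3 and 3.88, 2.90 and 3.49 in WT arrays 1, 2 and 3. The microglia label was checked against its markers. The 16 measured microglia markers had a summed linear signal of 114862 to 125303 in SOD1 G93A arrays and 104205 to 112553 in WT arrays. Of them 3 rose, with Trem2, a lipid-sensing receptor, up by 1.28 on the log2 scale and Fcrls, an Fc receptor-like gene of microglia, up by 1.07. The 1 that fell was Sall1, with a log2 fold change of -0.83. The other 12 did not pass, and the median over the 16 was -0.02.

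Markers of other cell types moved with genotype as well. The 17 oligodendrocyte markers summed to 11106 to 12409 in SOD1 G93A arrays and 18851 to 27831 in WT arrays. Of them 3 fell, the myelin gene Mobp (log2 fold change -2.49), Bcas1 (-2.03) and Mbp (-1.16), the brightest of the list. The other 14 did not pass, with Mag at 0.11 and Sox10 at -0.10, and the median over the 17 was -0.36. The 14 astrocyte markers summed to 1473 to 2492 against 3174 to 6111, and 5 fell, including the glutamate transporter Slc1a2 (-1.60), while the gap junction gene Gja1 had a log2 fold change of -1.77 (adjusted p = 0.0646, limma). The 12 neuronal markers summed to 606 to 664 against 1170 to 1362, with 5 lower and 1 higher, and their largest differences were in Nefl (-2.20) and Kif5c (-1.5). Among 12 neutrophil and monocyte markers 4 fell, with Ccr2 at -1.22 and Mpo at -1.45 (adjusted p = 0.0777), although the sums overlapped at 57927 to 85053 against 76344 to 124986. In WT arrays the sums of the microglia markers, 104205 to 112553, lay within that range. The sorted samples thus held strong signal of neutrophil and monocyte markers, with S100a8 at 14.04 to 14.57 on the log2 scale over the 6 arrays. Among 9 endothelial markers 1 rose, Flt1 at 0.87, while Vwf had a log2 fold change of 0.71 (adjusted p = 0.262), and the sums were 945 to 1239 against 879 to 1017. The mean log2 signal over the 6 arrays was below 5, the level taken here as low, in the neuronal markers Nefm, Snap25, Map2, Gap43 and Tubb3, the astrocyte marker Gjb6 and the endothelial marker Tek, and in 0 oligodendrocyte or neutrophil and monocyte markers. In such bulk samples fewer cells of a type and less RNA per cell cannot be told apart, and the part of these cells in the values below was not tested.

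Among the measured genes, the squalene epoxidase gene Sqle, the lathosterol oxidase gene Sc5d and the acetyl-CoA carboxylase gene Acaca rose in SOD1 G93A microglia, the stearoyl-CoA desaturase gene Scd1 fell, and the other 30 did not pass the test. A gene passed at an adjusted p under 0.05 by limma, with Benjamini-Hochberg adjustment over all 18193 genes, each represented by its probe set of highest mean signal. The 3 genes that rose were 8.82% of the 34, against 4.09% of all genes, and the 1 that fell was 2.94%, against 2.53% of all genes, so that in either direction 6.63% of all genes passed. The groups did not overlap, with every SOD1 G93A array above every WT array, in 11 of the 34 (32.4%, against 16.6% of all genes), and with every SOD1 G93A array below every WT array in 2 (5.88%, against 10.9% of all genes). The median log2 fold change was 0.24 over the sterol enzymes, 0.16 over the control and transport genes and -0.14 over the fatty acid genes, with 0.02 over all genes. The fatty acid median turned to 0.12 when probe sets with suffixed names, which can match several transcripts, were passed over where a gene had others.

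**Figure D1:**
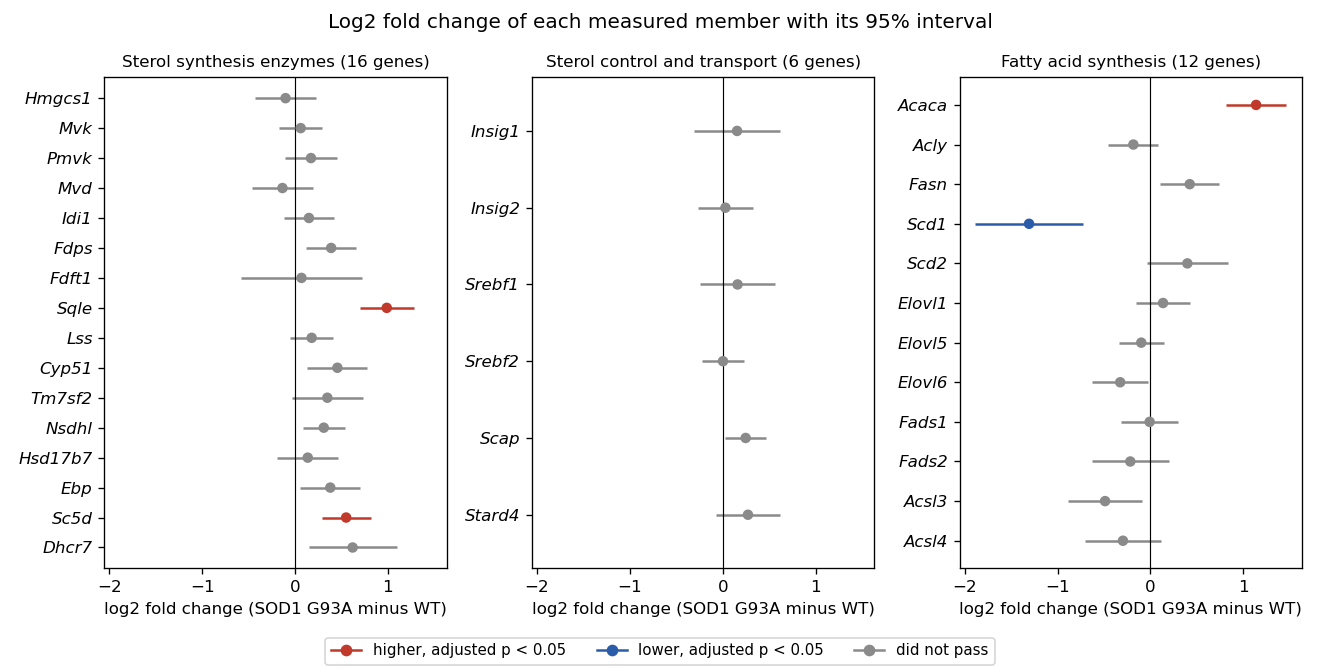
Log2 fold change (SOD1 G93A minus WT) of the 34 measured genes in 3 panels, with points for the limma estimate, lines for its 95% interval and colours for genes that passed the adjusted p threshold. Sqle, Sc5d and Acaca lie to the right of 0 and Scd1 to the left, and most other sterol enzymes lie between 0 and 0.62.

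Of the 16 sterol synthesis enzymes 2 rose (12.5%, against 4.09% of all genes), 0 fell (against 2.53%) and 14 did not pass. The log2 fold change was above 0 in 14 of the 16, and in 9890 of all 18193 genes. At an unadjusted p under 0.05, 7 of the 16 were higher and 0 lower, where 12.7% of all genes were higher and 8.86% lower. The 6 enzymes from Hmgcs1 to Fdps, which make the isoprenoid precursors, had a median log2 fold change of 0.11 and 0 of them passed. The 10 enzymes from Fdft1 to Dhcr7 make squalene and turn it into cholesterol. Their median was 0.36, and all 10 values were above 0 in the brightest probe sets. With the mean of a gene's probe sets Lss became -0.015, and of the early enzymes Hmgcs1 became 0.057, Mvd 0.14 and Idi1 -0.048. In 7 of these 10 (70%) and in 1 of the 6 earlier enzymes (16.7%) every SOD1 G93A array was above every WT array, against 16.6% of all genes. This difference between the early and late steps was not tested.

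Sqle encodes squalene epoxidase, a rate-limiting enzyme of the later pathway. Its log2 signal was 8.09, 8.43 and 8.19 in the SOD1 G93A arrays and 7.40, 7.19 and 7.16 in the WT arrays. All SOD1 G93A arrays lay above all WT arrays, with means of 8.24 ± 0.17 and 7.25 ± 0.13 (SD, n = 3 arrays per group). Sqle rose by 0.99 on the log2 scale (SE 0.13, 95% interval 0.70 to 1.28, adjusted p = 0.00411), a 1.98-fold difference. It has a single probe set, and its call held in each of the 6 fits that left out 1 array (log2 fold change 0.89 to 1.07, adjusted p 0.00431 to 0.0263).

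Sc5d encodes the sterol C5-desaturase that converts lathosterol to 7-dehydrocholesterol. On the log2 scale the SOD1 G93A arrays read 7.63, 7.63 and 7.79 and the WT arrays 7.27, 7.14 and 6.98, again with no overlap. Sc5d rose by 0.55 on the log2 scale (SE 0.12, 95% interval 0.29 to 0.81, adjusted p = 0.0272), a 1.47-fold difference. Of its 2 dimmer probe sets, 1 had a log2 fold change of 0.60 (adjusted p = 0.0802 over all probe sets), the other 0.05. The call was lost without SOD1 G93A array 2 (adjusted p = 0.0797), SOD1 G93A array 3 (0.11), WT array 2 (0.0824) or WT array 3 (0.0996), with values of 0.48 to 0.62 over the 6 fits.

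The 3 largest differences among the sterol enzymes that did not pass were in Dhcr7, Cyp51 and Fdps. Dhcr7 encodes 7-dehydrocholesterol reductase, the last step to cholesterol. The log2 signal of Dhcr7 was 9.04, 8.59 and 8.44 in SOD1 G93A arrays and 8.42, 7.69 and 8.09 in WT arrays, with a log2 fold change of 0.62 (95% interval 0.15 to 1.10, adjusted p = 0.121). The groups did not overlap, but the lowest SOD1 G93A array and the highest WT array, number 1, were almost level.

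Cyp51 encodes lanosterol 14-alpha-demethylase, the target of azole inhibitors. The log2 signal of Cyp51 was 7.96, 7.66 and 7.59 in SOD1 G93A arrays and 7.49, 7.14 and 7.20 in WT arrays, without overlap and with a log2 fold change of 0.46 (95% interval 0.13 to 0.78, adjusted p = 0.0965). A second, dimmer probe set of Cyp51 also had 0.46 and the third had 0.10. Fdps encodes farnesyl diphosphate synthase, the branch point to squalene and to protein prenylation. Its log2 signal was 5.86, 5.95 and 6.21 in SOD1 G93A arrays and 5.58, 5.64 and 5.64 in WT arrays, and it had a log2 fold change of 0.39 (adjusted p = 0.0923).

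In the remaining late enzymes the log2 fold change was 0.38 in Ebp, the sterol isomerase, 0.35 in the sterol reductase Tm7sf2, 0.31 in Nsdhl, which takes part in removing the C4 methyl groups, 0.18 in lanosterol synthase (Lss), 0.14 in Hsd17b7 and 0.07 in squalene synthase (Fdft1). The groups did not overlap in Ebp, Nsdhl and Lss. In the early enzymes it was 0.17 in Pmvk, 0.15 in Idi1, 0.06 in Mvk, -0.10 in Hmgcs1 and -0.14 in Mvd. Hmgcs1, the HMG-CoA synthase gene, read 11.31 to 11.80 over the 6 arrays, and its groups overlapped.

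**Figure D2:**
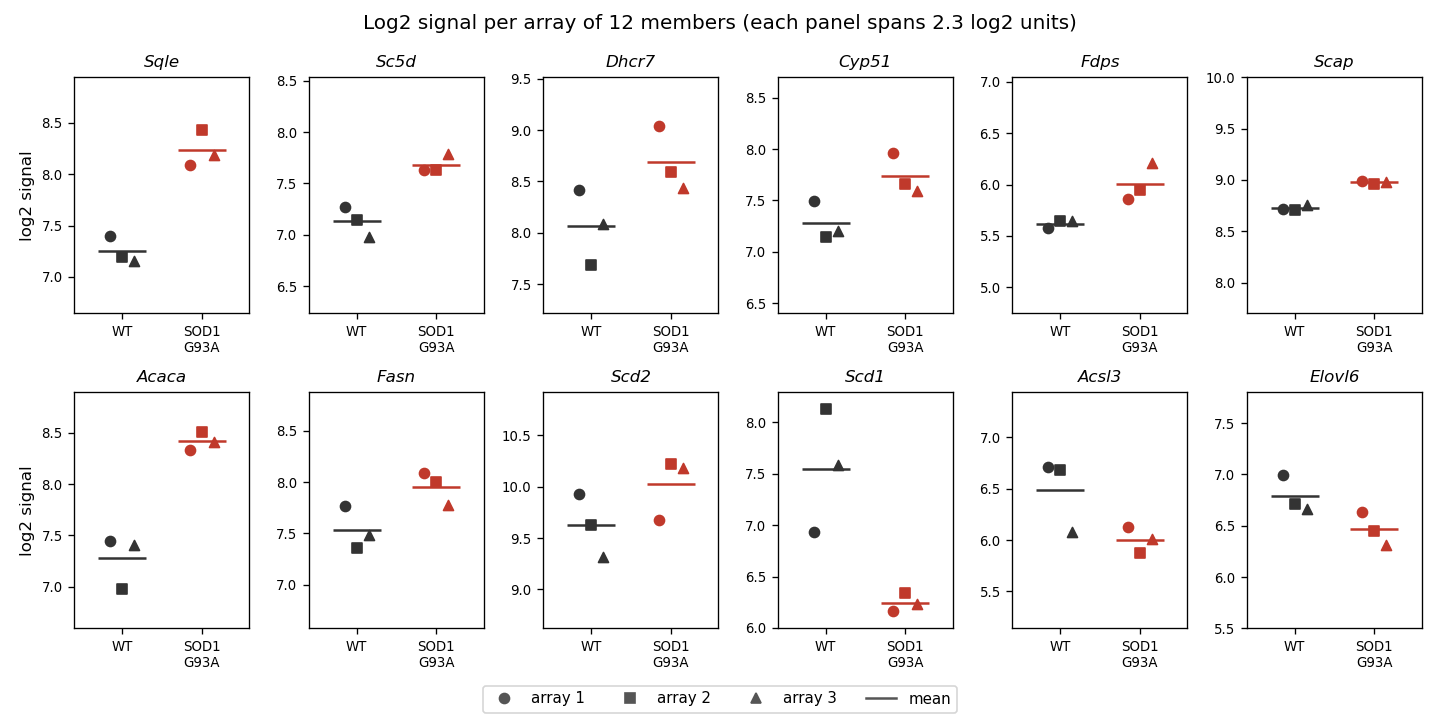
Log2 signal of 12 genes in each array (vertical axis, log2 units), with WT in dark grey, SOD1 G93A in red, a marker shape for each array number and a line for the group mean. The groups are apart in Sqle, Sc5d, Acaca and Scd1, the 4 genes that passed. They are also apart in Dhcr7, Cyp51, Fdps, Scap, Fasn and Elovl6, which did not pass, and overlap in Scd2 and Acsl3. Over all genes the groups were apart in 16.6% with SOD1 G93A higher and in 10.9% with SOD1 G93A lower.

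When each gene was set against its own mean over the 6 arrays, the median deviation of the 16 sterol enzymes was 0.16, 0.12 and 0.08 in SOD1 G93A arrays 1, 2 and 3 and -0.01, -0.22 and -0.11 in WT arrays 1, 2 and 3. All SOD1 G93A arrays stood above all WT arrays, and array 1 was the highest within each genotype. In the SOD1 G93A arrays 15, 11 and 11 of the 16 enzymes were above their own mean, against 7, 1 and 1 in the WT arrays. Array 1 was the highest of both genotypes in 6 of the 16 (37.5%, against 24% of all genes), namely Hmgcs1, Mvk, Fdft1, Cyp51, Tm7sf2 and Dhcr7. Without both arrays numbered 1, 4 of the 16 enzymes passed, Sqle (log2 fold change 1.14), Sc5d (0.65), Cyp51 (adjusted p = 0.0493) and Dhcr7 (adjusted p = 0.0317), where 10.1% of all genes passed. The same deviations over all genes lay between -0.04 and 0.05.

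**Figure D3:**
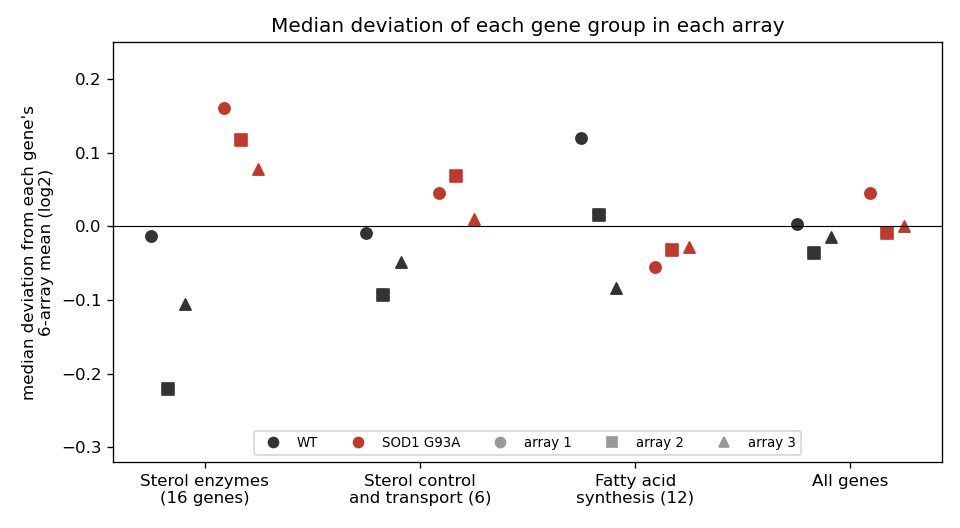
Median deviation, in log2 units, of each gene group from its genes' 6-array means (vertical axis) in each WT (dark grey) and SOD1 G93A (red) array, with a marker shape for each array number. The sterol enzymes lie above 0 in all SOD1 G93A arrays and below 0 in all WT arrays, whereas the fatty acid genes mix.

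The promoters of the measured genes were searched for motifs of sterol control. RefSeq windows (GRCm38.p6) from 250 bases before to 50 bases after an annotated start were found for 27 of the 34 measured genes, 36 windows in all. No window was found for Sqle, Scd1, Scd2, Fads1, Fdft1, Fdps and Stard4, so their promoters were not searched. The sterol regulatory element, a site bound by SREBPs, was searched only as the letters TCACNCCAC, so sites with other letters were not looked for. The other motifs were the CCAAT box (CCAAT) bound by NF-Y, the GC box (GGGCGG) bound by Sp1 and the E-box CACGTG. All were searched on both strands, and no matches of different motifs overlapped in the stretches printed here. CCAAT was in 63.9% of these windows against 37.4% of all 32851 promoter windows, GGGCGG in 75% against 35.7%, CACGTG in 19.4% against 7.15%, and TCACNCCAC in 2.78% against 1.24%. The last was a single match, in Hmgcs1, whose log2 fold change was -0.10. The 250 bases before the start are printed for 3 genes, 5' to 3' on the gene's strand, with every motif match in capitals. Those of Sc5d are given because it rose, those of Cyp51 because its groups were apart, and those of Hmgcs1 for the TCACNCCAC match. They lie at chr9:42264301-42264550 (minus strand), chr5:4104698-4104947 (minus strand) and chr13:119690101-119690350 (plus strand).
Sc5d: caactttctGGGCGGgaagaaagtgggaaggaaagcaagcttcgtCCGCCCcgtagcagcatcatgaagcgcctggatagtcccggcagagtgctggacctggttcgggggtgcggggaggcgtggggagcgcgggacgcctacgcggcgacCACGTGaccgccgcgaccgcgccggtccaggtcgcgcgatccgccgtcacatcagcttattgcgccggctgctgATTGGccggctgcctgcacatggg
Cyp51: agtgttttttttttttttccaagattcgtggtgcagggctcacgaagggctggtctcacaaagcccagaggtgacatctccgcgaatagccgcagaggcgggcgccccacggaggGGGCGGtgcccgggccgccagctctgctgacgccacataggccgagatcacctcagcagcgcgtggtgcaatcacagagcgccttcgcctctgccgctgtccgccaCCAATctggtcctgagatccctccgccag
Hmgcs1: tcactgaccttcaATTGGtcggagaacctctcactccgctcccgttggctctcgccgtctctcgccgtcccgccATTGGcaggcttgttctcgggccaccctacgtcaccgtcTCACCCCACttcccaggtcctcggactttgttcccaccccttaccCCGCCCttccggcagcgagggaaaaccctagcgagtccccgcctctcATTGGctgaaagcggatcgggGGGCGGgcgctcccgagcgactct
The capitals mark 4 matches in Sc5d, of which 2 are GC boxes, 1 is a CCAAT box and 1 is the E-box. In Cyp51 they mark 1 GC box and 1 CCAAT box, and in Hmgcs1 3 CCAAT boxes, 2 GC boxes and 1 match to TCACNCCAC. The single window of Acaca, which rose, held 0 of the 4 motifs. These matches are letters in a window and say nothing of binding in these cells.

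Of the 6 control and transport genes 0 passed by limma, where 6.63% of all genes passed. At an unadjusted p under 0.05, 1 was higher and 0 lower, where 12.7% and 8.86% of all genes were. The methods' t-test after adjustment passed 0 of them, but also 0 of all 18193 genes. All 6 log2 fold changes were above 0. Scap encodes the escort of SREBPs from the endoplasmic reticulum to the Golgi. The log2 signal of Scap was 8.99, 8.96 and 8.98 in SOD1 G93A arrays and 8.72, 8.71 and 8.76 in WT arrays, with no overlap and a log2 fold change of 0.25 (95% interval 0.03 to 0.47, adjusted p = 0.173). Stard4, a carrier of cholesterol between membranes, was at 7.57, 7.81 and 8.05 against 7.35, 7.74 and 7.52, overlapping, with a log2 fold change of 0.27 (adjusted p = 0.355). Srebf1 was at 9.07, 8.67 and 8.61 against 8.85, 8.28 and 8.73, overlapping, with a log2 fold change of 0.16 (adjusted p = 0.678). The values were 0.155 in Insig1, 0.03 in Insig2 and 0.0031 in Srebf2, with a 95% interval of -0.23 to 0.23 for Srebf2. Over the control genes as a whole the median deviation was 0.04, 0.07 and 0.01 in SOD1 G93A arrays and -0.01, -0.09 and -0.05 in WT arrays.

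Of the 12 fatty acid genes 1 rose (8.33%, against 4.09% of all genes), 1 fell (8.33%, against 2.53%) and 10 did not pass. The log2 fold changes were above 0 in 4 and below 0 in 8, and at an unadjusted p under 0.05 2 of the 12 were higher and 3 lower, where 12.7% and 8.86% of all genes were. The groups did not overlap in 2 genes higher in SOD1 G93A, Acaca and Fasn (16.7%, against 16.6% of all genes). They did not overlap in 2 lower, Scd1 and Elovl6 (16.7%, against 10.9% of all genes). The median deviation of these genes was -0.05, -0.03 and -0.03 in SOD1 G93A arrays and 0.12, 0.02 and -0.08 in WT arrays, so that the genotypes overlapped.

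Acaca encodes acetyl-CoA carboxylase alpha, which makes malonyl-CoA, the committed step of fatty acid synthesis. Its log2 signal was 8.33, 8.51 and 8.41 in SOD1 G93A arrays and 7.45, 6.98 and 7.41 in WT arrays. The arrays of each genotype lay far apart, with means of 8.42 ± 0.09 and 7.28 ± 0.26 (SD, n = 3 arrays per group). Acaca rose by 1.14 on the log2 scale (SE 0.14, 95% interval 0.81 to 1.47, adjusted p = 0.00374), a 2.20-fold difference. The call held in all 6 fits that left out 1 array (log2 fold change 0.99 to 1.23, adjusted p 0.00418 to 0.027). It rests on 1 probe set, since the other probe set of Acaca had a mean log2 signal of only 4.34 and a log2 fold change of 0.29, and the mean of both had 0.71 (adjusted p = 0.0175).

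Scd1 encodes stearoyl-CoA desaturase 1, which makes oleate from stearate. Its log2 signal was 6.16, 6.34 and 6.23 in SOD1 G93A arrays and 6.93, 8.13 and 7.59 in WT arrays. The SOD1 G93A arrays were close together and below all WT arrays, while the WT arrays spread widely (SD 0.60 against 0.09). Scd1 fell by 1.31 on the log2 scale (SE 0.26, 95% interval -1.89 to -0.73, adjusted p = 0.021), a 2.47-fold difference. The call was lost without SOD1 G93A array 2 (adjusted p = 0.0722), SOD1 G93A array 3 (0.0801) or WT array 3 (0.0827), with log2 fold changes of -1.62 to -1.02 over the 6 fits. The second probe set of Scd1 was dim, with a mean log2 signal of 3.80 and a log2 fold change of 0.16, and the mean of both had -0.57 (adjusted p = 0.0362). The summed oligodendrocyte markers were also lower in every SOD1 G93A array than in any WT array, though only 3 of the 17 fell by limma. Their part in the Scd1 values was not tested.

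Scd2, the other stearoyl-CoA desaturase on the list, was at 9.68, 10.22 and 10.18 in SOD1 G93A arrays and 9.93, 9.63 and 9.32 in WT arrays. The groups overlapped through the arrays numbered 1, and the log2 fold change was 0.40 (95% interval -0.04 to 0.83, adjusted p = 0.275). Without both arrays numbered 1 it was 0.72 (adjusted p = 0.0103), and Scd2 then passed with Acaca (1.27) and Scd1 (-1.58). Of the 2 dimmer Scd2 probe sets, both had negative values, at -0.11 and -0.13.

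Fasn encodes fatty acid synthase. The log2 signal of Fasn was 8.09, 8.0 and 7.78 in SOD1 G93A arrays and 7.77, 7.36 and 7.48 in WT arrays, just without overlap, with a log2 fold change of 0.42 (95% interval 0.11 to 0.74, adjusted p = 0.115). Acsl3, an acyl-CoA synthetase of the endoplasmic reticulum and lipid droplets, was at 6.13, 5.87 and 6.01 against 6.71, 6.68 and 6.08. The groups overlapped in WT array 3 alone, the log2 fold change was -0.49 (adjusted p = 0.145), and without that array it was -0.70 (adjusted p = 0.0422).

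The other fatty acid genes had values of -0.33 in the elongase Elovl6 (adjusted p = 0.198), -0.30 in the arachidonate-preferring synthetase Acsl4, -0.22 in the desaturase Fads2, -0.18 in ATP citrate lyase (Acly), -0.10 in Elovl5, -0.01 in Fads1 and 0.14 in Elovl1. Taken by role, the median log2 fold change was 0.42 over Acaca, Acly and Fasn, -0.11 over the 4 desaturases, -0.10 over the 3 elongases and -0.39 over the 2 acyl-CoA synthetases.

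The probe sets of a gene did not always give the same value. The 34 genes had 82 probe sets, 9 genes had only 1, and in 10 of the other 25 all probe sets had the same sign. Of the 48 probe sets that did not represent their gene, 10 had a mean log2 signal below 5, 0 passed by limma when adjusted over all 45037 probe sets, and 10 had an unadjusted p under 0.05. The widest splits were among the fatty acid genes. A dimmer probe set of Elovl1 had 0.84 (adjusted p over all probe sets 0.0939) where the brightest had 0.14, and 1 of Elovl5 had 0.39 where the brightest had -0.10. In Acly single probe sets had 0.45 and -0.41, and in Fads1 the second probe set had -0.46 (adjusted p over all probe sets 0.0739).

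**Figure D4:**
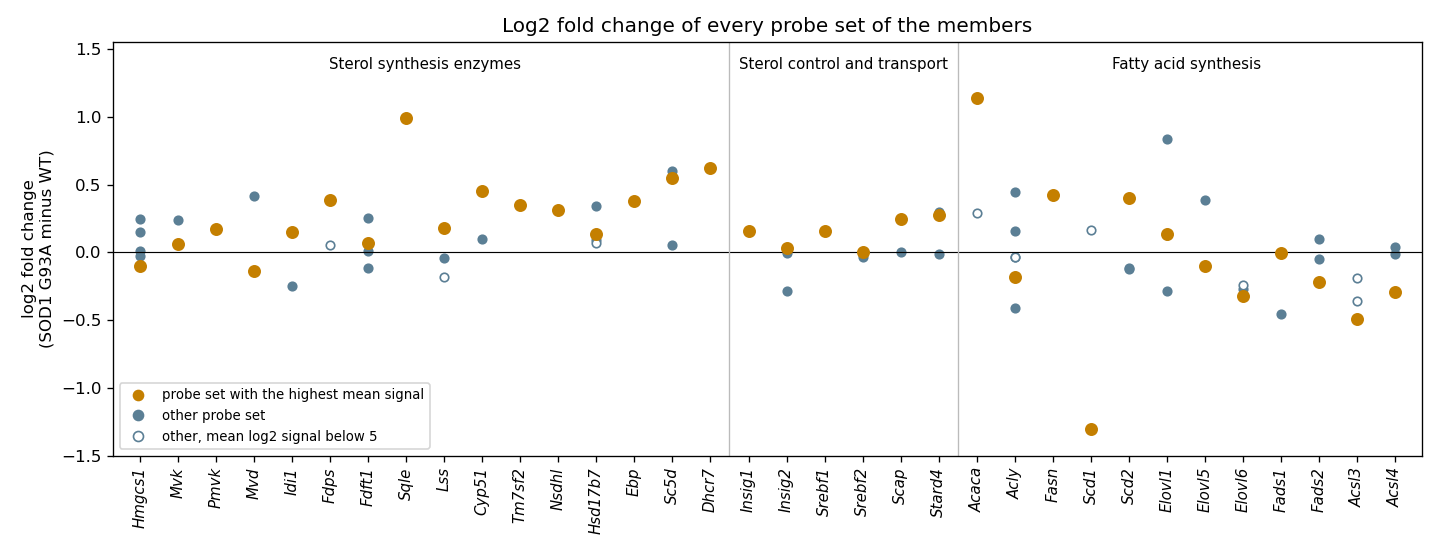
Log2 fold change (vertical axis, SOD1 G93A minus WT) of all 82 probe sets of the 34 genes (horizontal axis), in orange for the probe set that represents the gene, in blue for the others and open where the mean log2 signal was below 5. The probe sets lie on both sides of 0 in Acly, Elovl1 and Elovl5, and those of Sc5d and Elovl6 lie on 1 side.

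Other genes of both pathways were read for context. Of 15 further sterol genes measured, 0 passed by limma, against 6.63% of all genes, with a median log2 fold change of 0.12. At an unadjusted p under 0.05, 3 were higher and 1 lower, where 12.7% and 8.86% of all genes were. The methods' t-test after adjustment passed 0 of them, but also 0 of all 18193 genes. Groups did not overlap in 5 higher in SOD1 G93A (33.3%, against 16.6% of all genes) and 1 lower (6.67%, against 10.9%). Msmo1, the sterol C4-methyl oxidase between Cyp51 and Nsdhl, is named after its values were seen. It was at 7.64, 7.98 and 8.32 in SOD1 G93A arrays and 6.71, 7.55 and 7.16 in WT arrays, with a log2 fold change of 0.84 (adjusted p = 0.0658), but its second probe set had -0.62. Single dimmer probe sets passed in Nus1, a subunit of the dolichol-making prenyltransferase (0.57, adjusted p over all probe sets 0.0221), and in Prkag1, a subunit of the kinase AMPK (-0.56, adjusted p over all probe sets 0.0339), while the brightest probe sets had 0.0031 and -0.04.

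Of 25 further fatty acid genes 3 rose (12%, against 4.09% of all genes) and 1 fell (4%, against 2.53%), with a median log2 fold change of -0.03. Elovl7, an elongase of long saturated chains, was at 6.41, 6.67 and 6.31 in SOD1 G93A arrays and 8.08, 7.48 and 7.5 in WT arrays and fell by 1.22 on the log2 scale (adjusted p = 0.00714). Hsd17b12, the ketoacyl-CoA reductase of the elongation cycle, was at 10.24, 10.53 and 10.41 against 9.84, 9.72 and 9.60 and rose by 0.67 (adjusted p = 0.0146). Hacd2, the dehydratase of that cycle, was at 12.09, 11.62 and 11.78 against 10.95, 11.16 and 11.34 and rose by 0.67 (adjusted p = 0.0366). Hsd17b12 and Hacd2 act on the chains that the elongases lengthen. Acsl5, an acyl-CoA synthetase of mitochondria and the endoplasmic reticulum, was at 10.75, 10.93 and 10.96 against 10.03, 10.42 and 10.39 and rose by 0.60 (adjusted p = 0.035). The groups did not overlap in Elovl7, Hsd17b12, Hacd2 and Acsl5. Over the 25 genes this held in 6 higher in SOD1 G93A (24%, against 16.6% of all genes) and 5 lower (20%, against 10.9%). Of the dimmer probe sets, 2 of Elovl7 passed over all probe sets (-0.72 and -0.86), 1 of Hsd17b12 passed (0.68) and 1 of Hacd2 did not (0.44, adjusted p = 0.0576). Elovl7 kept its call in all 6 fits that left out 1 array, Hsd17b12 in 2, Acsl5 in 1 and Hacd2 in 0. Me1, the NADPH-making malic enzyme, had -0.21 in its brightest probe set and -0.60 in a dimmer one (adjusted p over all probe sets 0.0239).

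With the Gapdh 3' minus 5' difference of each array as a covariate, 0 of the 34 genes passed and 94 of all genes (0.517%) did. The log2 fold change was then 1.0 in Sqle (SE 0.20, adjusted p = 0.0725), 1.16 in Acaca (SE 0.22, adjusted p = 0.0673), 0.46 in Sc5d (SE 0.17, adjusted p = 0.27) and -1.47 in Scd1 (SE 0.38, adjusted p = 0.146). The SE of each was larger than without the covariate, and the direction was the same. Among the sterol enzymes that did not pass, Dhcr7 was at 1.04, Fdft1 at 0.79, Cyp51 at 0.71, Tm7sf2 at 0.67, Ebp at 0.17 and Fdps at 0.15. That covariate and genotype overlap in these 6 arrays, since every SOD1 G93A array was below every WT array. Under the methods' t-test, two-sided with unequal variance and with the same adjustment, 0 of all 18193 genes passed, with adjusted p of 0.193 for Sqle, 0.233 for Sc5d, 0.241 for Acaca and 0.362 for Scd1 (an unadjusted p under 0.05 together with the methods' fold threshold held for 424 genes, Sqle and Acaca among them).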

How the data were processed

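Signals of 6 whole-genome Affymetrix arrays were read, 3 of SOD1 G93A and 3 of WT microglia. The authors deposited log2 values per probe set, made by RMA in Partek per the labels, with versions not given in the sources used here; the study's methods name MAS 5.0 for the signal, and the values have the range of RMA. RMA brings the arrays to 1 distribution and shrinks differences of dim probe sets. An array gives no read depth, and the number of arrays limits the precision. All columns were mapped to samples.

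Of 45037 probe sets left after 64 controls, 34945 had 1 gene symbol in the platform annotation, 932 had several and 9160 had none. limma 3.58.1 in R 4.3.3 was fitted on all of them (lmFit and eBayes, genotype alone), each of 18193 genes was read from its probe set of highest mean signal, and p was adjusted over genes (Benjamini-Hochberg, under 0.05). The fit was checked on simulated data. An exact two-sided permutation test of 3 against 3 cannot go below 0.1, so none is given.

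The members and lists were chosen with earlier results of these data known. Arrays were given for members that passed and, per group, for the 3 largest that did not. Markers named were the 2 largest per list and a few others, and genes whose probe sets disagreed were named too. Alternatives were another test, moderation, probe set choice, adjustment set, filter, centring, array weights, replicate block, Gapdh covariate and arrays left out.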

Additional observations from a re-analysis of the deposited data

How the results depend on the processing

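Sqle and Acaca kept direction and call when any 1 array was left out, and Sqle, Sc5d, Acaca and Scd1 kept direction under every alternative run. The genes called among 18193 (1206) became 94 with the Gapdh covariate, 1819 with array weights, 1842 without both arrays numbered 1, 0 by the methods' t-test after adjustment (424 at its fold and unadjusted thresholds) and 358 to 1166 with 1 array left out (446 without SOD1 G93A array 2, 358 without SOD1 G93A array 3, 456 without WT array 2 and 433 without WT array 3). The 2 sterol enzymes called became 0 with the Gapdh covariate and 0 by the t-test (1 at its thresholds, Sqle), 4 without both arrays numbered 1, and 1 to 2 with 1 array left out. The 2 fatty acid genes called became 0, 0, 1 (Acaca) and, with 1 array left out, 1 to 2. Of the further fatty acid genes 4 became 0, 0, 1 (Elovl7) and 1 to 3, and of the further sterol genes 0 became 1 with array weights (Msmo1), 1 without both arrays numbered 1 (Msmo1), 1 without probe sets of suffixed names (Nus1) and 0 to 1 with 1 array left out. The control and transport genes called stayed at 0 under every alternative run. The cause of these shifts was not tested. A fit on 1 probe set per gene alone, chosen after seeing the data, left the calls of all the gene groups at their numbers.

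The median of the sterol enzymes stayed above 0 throughout, at 0.33 without probe sets of suffixed names. That of the control genes ranged from 0.018 to 0.24 with 1 array left out and was 0.11 with array weights and 0.20 with the Gapdh covariate. That of the fatty acid genes was -0.044 with the Gapdh covariate, -0.032 with the mean of probe sets, -0.048 without both arrays numbered 1 and 0.12 without probe sets of suffixed names. Genes that did not pass changed sign. With the Gapdh covariate Hmgcs1 became 0.10, Mvd 0.14, Srebf2 -0.079, Stard4 -0.065 and Fads2 0.089. The same covariate moved other genes that did not pass by over 1.5 times, to 1.04 in Dhcr7, 0.79 in Fdft1, 0.71 in Cyp51, 0.67 in Tm7sf2, 0.67 in Fasn, 0.47 in Insig1, 0.47 in Srebf1, 0.30 in Hsd17b7, 0.29 in Lss, 0.27 in Elovl1, 0.18 in Scd2, 0.17 in Ebp, 0.16 in Insig2, 0.15 in Fdps, 0.33 in Msmo1, -0.021 in Fads1, -0.093 in Elovl6 and -0.56 in Acsl4. With the mean of a gene's probe sets Hmgcs1 became 0.057, Mvd 0.14, Idi1 -0.048, Lss -0.015, Insig2 -0.088, Srebf2 -0.017 and Elovl5 0.14. Without probe sets of suffixed names Hmgcs1 became 0.15, Mvd 0.41, Lss -0.039, Acly 0.45, Elovl5 0.39, Fads2 0.098 and Msmo1 -0.62. With arrays centred on their medians Fads1 became 0.010. With 1 array left out the values spanned -0.21 to 0.041 in Hmgcs1, -0.20 to 0.32 in Fdft1, -0.023 to 0.33 in Insig1, -0.093 to 0.12 in Insig2, -0.0096 to 0.27 in Srebf1, -0.029 to 0.0495 in Srebf2 and -0.097 to 0.13 in Fads1. Without a change of sign they spanned -0.33 to -0.010 in Fads2, -0.45 to -0.14 in Acsl4, -0.23 to -0.11 in Acly, -0.15 to -0.057 in Elovl5, -0.23 to -0.026 in Mvd, 0.021 to 0.26 in Hsd17b7, 0.040 to 0.21 in Elovl1, 0.030 to 0.12 in Mvk, 0.055 to 0.22 in Idi1, 0.070 to 0.25 in Pmvk, 0.15 to 0.39 in Stard4, 0.21 to 0.47 in Tm7sf2 and 0.24 to 0.57 in Scd2.

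The labels number the arrays 1 to 3 in each genotype without saying what a number marks. Deviations from the group means correlated at 0.44, 0.24 and 0.04 over genes between same-numbered arrays, and SOD1 G93A array 3 correlated best with WT array 2 (0.42), so the numbers were not taken as pairs. With the replicate block 2221 genes passed, 4 sterol enzymes (Sqle, Sc5d, Cyp51 and Dhcr7), 3 fatty acid genes (Acaca, Fasn and Scd1) and 2 further sterol genes (Msmo1 and Ggps1).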
